A study of Mus musculus with 12 samples.

Results

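The mitotic cell cycle genes described here are 42 genes that dividing cells switch on, taken in 2 subgroups. The mitosis subgroup has 26 genes that condense, capture and separate chromosomes or finish cell division. The replication subgroup has 16 genes that start DNA synthesis, copy DNA or make its nucleotides. They were chosen by symbol, and 41 of the 42 were among the 12393 genes with a probe set assigned to 1 gene symbol, so each is represented by its brightest probe set over the 12 arrays. Ccnb1, the mitotic cyclin B1, had no such probe set and was not analysed here. After a filter on low intensity 37 members were tested, 23 of mitosis and 14 of replication, among 8675 genes.

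The cells were mouse embryonic fibroblasts (MEFs) without endogenous PPARγ, a nuclear receptor and master regulator of fat cell formation, and with an introduced form of it. The 4 groups of 3 arrays each were S273A cells, which carried the receptor with alanine in place of a serine that can be phosphorylated, wild-type PPARγ cells with 1 µM rosiglitazone for 24 h, wild-type PPARγ cells with 1 µM MRL24 for 24 h, and untreated wild-type PPARγ cells. All had been through 6 days of differentiation and were labelled as adipocytes. Rosiglitazone is a thiazolidinedione and full agonist of PPARγ, and MRL24 is another ligand of the receptor. The labels call the S273A cells mutant, which was taken as the substitution that the series text names. As far as the labels say, each receptor form was present in 1 set of cells, so the substitution and a difference between cell populations cannot be told apart. The labels state neither whether untreated cells received vehicle nor whether replicate arrays hold RNA of independent cultures. The p-values are therefore about the spread of these arrays, part or all of which may be technical.

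Cells that divide pass through a phase of DNA synthesis and then mitosis, and the genes for each phase are switched on together. E2F factors open the replication genes once cyclin-dependent kinases (CDKs) release them from pocket proteins, while mitosis genes are held down in resting cells by the DREAM complex at a promoter element named CHR and are activated later through the same element, with CCAAT boxes close by. Fibroblasts and preadipocytes stop dividing at confluence, can divide again briefly after the differentiation cocktail, and leave the cycle as fat cells form. In bulk RNA, fewer dividing cells and less RNA of these genes per cell cannot be told apart.

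Of the members, 5 passed the test in at least 1 of the 4 comparisons, and their promoters are shown because every call on a member falls on one of them. Each line is a RefSeq window on GRCm38.p6, from 250 bases before the gene start to 50 after it, 5′ to 3′ on the gene's strand. Capitals mark CCAAT, the CHR letters TTTGAA and the E2F letters TTGGCGC or TTCCCGC, on either strand.
Mki67, chr7:135716330-135716629, minus strand: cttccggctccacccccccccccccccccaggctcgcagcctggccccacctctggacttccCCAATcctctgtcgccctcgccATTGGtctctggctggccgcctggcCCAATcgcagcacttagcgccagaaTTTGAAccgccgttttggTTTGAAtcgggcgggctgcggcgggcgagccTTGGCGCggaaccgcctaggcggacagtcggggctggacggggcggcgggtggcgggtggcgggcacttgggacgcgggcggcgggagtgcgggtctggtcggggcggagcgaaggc
Aurka, chr2:172370521-172370820, minus strand: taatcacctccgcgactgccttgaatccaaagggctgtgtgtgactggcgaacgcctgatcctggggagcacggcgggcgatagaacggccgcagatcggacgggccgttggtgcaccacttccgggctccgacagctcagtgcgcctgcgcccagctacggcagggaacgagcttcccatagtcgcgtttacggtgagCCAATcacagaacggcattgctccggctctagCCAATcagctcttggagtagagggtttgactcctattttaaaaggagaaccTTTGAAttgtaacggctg
Mcm6, chr1:128359656-128359955, minus strand: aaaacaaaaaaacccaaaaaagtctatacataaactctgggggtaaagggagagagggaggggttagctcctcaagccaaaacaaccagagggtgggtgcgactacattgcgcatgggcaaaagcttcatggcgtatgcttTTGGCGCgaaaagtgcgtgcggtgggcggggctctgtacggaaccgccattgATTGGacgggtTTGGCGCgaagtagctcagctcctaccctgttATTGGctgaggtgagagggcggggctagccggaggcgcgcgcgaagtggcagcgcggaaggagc
Pola1, chrX:93632106-93632405, minus strand: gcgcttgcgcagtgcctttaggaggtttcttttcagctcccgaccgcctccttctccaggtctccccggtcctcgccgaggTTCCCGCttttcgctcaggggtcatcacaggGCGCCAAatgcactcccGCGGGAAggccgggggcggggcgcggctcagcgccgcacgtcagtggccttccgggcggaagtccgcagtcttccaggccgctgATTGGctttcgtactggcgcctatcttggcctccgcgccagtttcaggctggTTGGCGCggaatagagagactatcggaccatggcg
Rrm2, chr12:24708004-24708303, plus strand: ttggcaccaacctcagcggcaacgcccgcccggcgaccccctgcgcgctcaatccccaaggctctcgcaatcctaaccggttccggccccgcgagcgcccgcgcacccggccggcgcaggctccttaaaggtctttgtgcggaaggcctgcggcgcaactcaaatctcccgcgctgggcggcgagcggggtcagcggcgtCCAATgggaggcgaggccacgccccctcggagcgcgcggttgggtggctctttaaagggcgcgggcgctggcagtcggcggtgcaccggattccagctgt
The Mki67 window held 3 CCAAT matches, 2 CHR matches and 1 E2F match, and the Aurka window held 2 CCAAT matches and 1 CHR match. The Mcm6 window held 2 CCAAT and 2 E2F matches, and the Pola1 window 1 CCAAT and 4 E2F matches. Rrm2 had 1 CCAAT match and neither of the other motifs. No CCAAT match overlapped an E2F match in these windows. A match is a string of letters and not a shown binding site.

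The same letters were counted over all members as a description, with no test. Windows were found for 35 of the 42 members, 2 of them with 2 windows. TTTGAA was present for 15 of 21 mitosis members (71.4%) and 2 of 14 replication members (14.3%), against 20.2% of the 27025 genes with a window. The E2F letters were present for 3 of 21 mitosis members (14.3%) and 8 of 14 replication members (57.1%), against 7.79% of all genes. CCAAT was present for 17 mitosis members (81.0%) and 11 replication members (78.6%), against 41.1% of all genes.

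The arrays were alike in scale, with medians of 297 to 315 intensity units and 2.11% to 2.48% of values at or below 1. Replicate 2 of the untreated wild-type group differed from the other arrays, with a score of -16.07 on the first principal component (25.8% of the variance) against -6.05 to 7.92 on the other arrays. It enters every comparison with untreated cells, so the members that passed the test are also given without it. Pparg itself averaged 1073 ± 162 in S273A cells, 833.5 ± 76.1 with rosiglitazone, 846 ± 20.7 with MRL24 and 904 ± 97.7 in untreated wild-type cells (intensity, SD, n = 3), and the limma adjusted p against untreated cells was 0.173 for S273A, 0.537 for rosiglitazone and 0.621 for MRL24. Its probes were not located on the deleted or introduced sequence, so these levels are no check of the labels. The adipocyte markers were uneven. Fabp4, the fat cell fatty acid carrier, averaged 9701 ± 455 in S273A cells, 25153 ± 209 with rosiglitazone, 15339 ± 199 with MRL24 and 9509 ± 782 in untreated cells. Adipoq, the fat cell hormone adiponectin, averaged 97.2 ± 7.9 in S273A cells, 139 ± 4.76 with rosiglitazone, 68.0 ± 22.5 with MRL24 and 53.5 ± 14.1 in untreated cells, and lay below the filter over the 12 arrays, as did Cidec and Lep.

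Most members were stable over the 12 arrays. The highest array exceeded the lowest by 1.15-fold to 1.64-fold, and for 32 of the 37 tested members by less than 1.5-fold. Differences below are of log2(intensity + 16), which understates changes of dim genes, and calls are at an adjusted p under 0.05 in limma, by Benjamini-Hochberg over all tested genes. The members gave 6 calls in 148 tests (4.05%), against 6.2% of all tests on all genes, and 32 members were called in no comparison. The median half-width of a member's 95% interval was 0.18 on the log2 scale, so differences well below that size could not be resolved. The intervals are not adjusted for the number of genes tested, so larger differences could also go uncalled. On data simulated for S273A, 16 of 50 genes with a log2 fall of 0.25 were called.

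**Figure D1:**
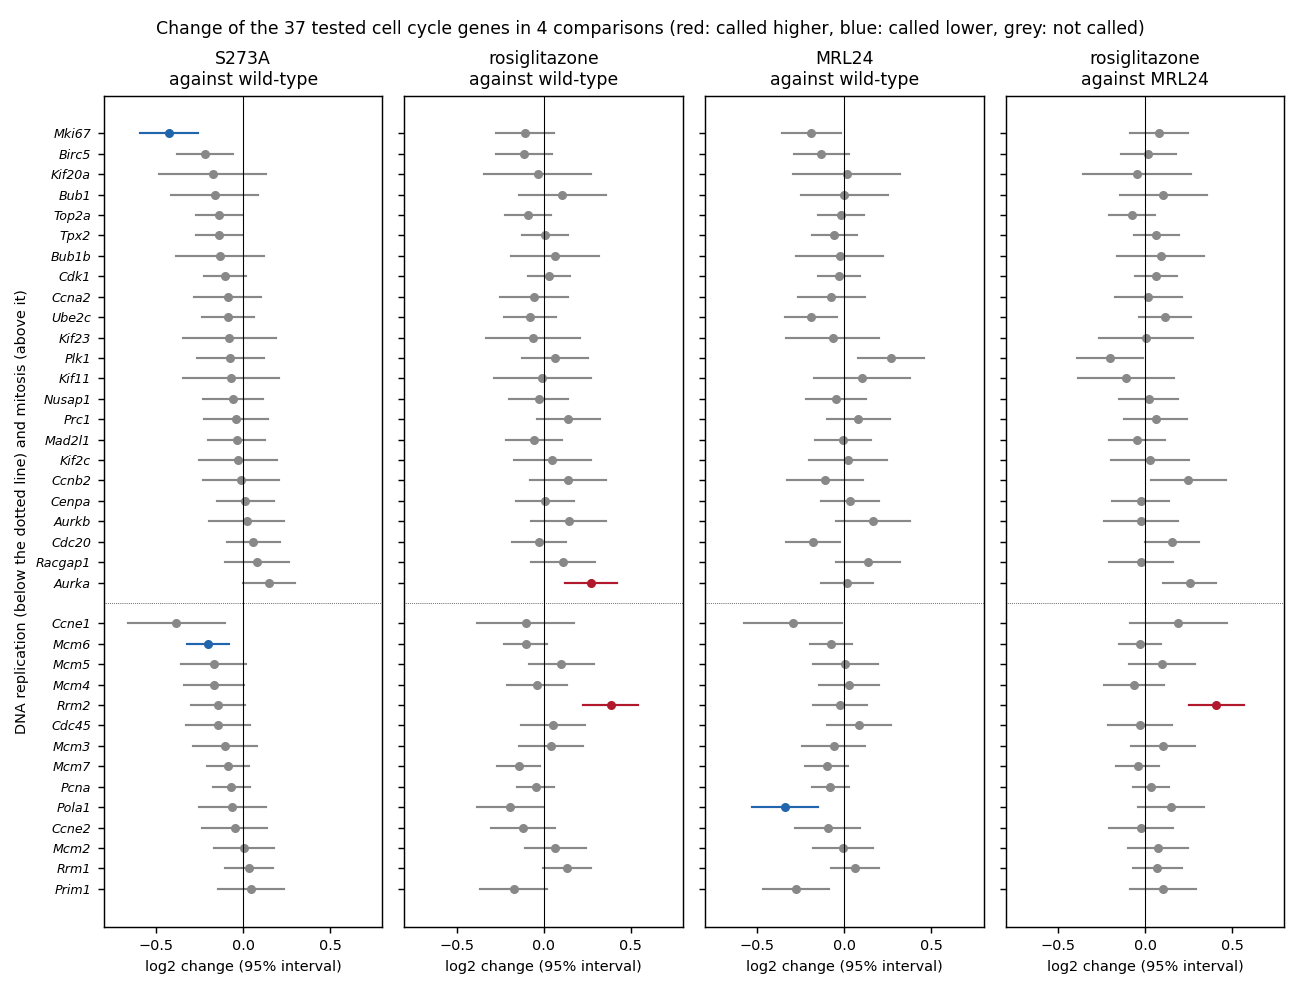
Log2 change of each of the 37 tested members, with its 95% interval, in S273A, rosiglitazone and MRL24 against untreated wild-type cells and in rosiglitazone against MRL24. Red marks members called higher, blue those called lower and grey those not called. The 6 coloured points are Mki67 and Mcm6 in S273A, Rrm2 and Aurka with rosiglitazone, Pola1 with MRL24 and Rrm2 between the ligands.

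The first comparison, S273A against untreated wild-type cells, addressed the loss of the phosphorylated serine. Mki67 and Mcm6 fell and no member rose, which is 2 of 37 members (5.41%), against 7.78% of all genes called in either direction, 5.48% called lower and 2.31% called higher. The share of members called was therefore not above the background. Mki67 had the largest change of any member in any comparison, at -0.42. An unadjusted p under 0.05 was reached by 6 members, against 21.5% of all genes. The differences of the other members mostly leaned the same way without passing the test. Over all 37 members, those 2 falls included, 29 lay below 0 (78.4%), against 51.6% of all tested genes. The members were read on the same arrays and are switched on together, so they are not separate observations. The median was -0.07 for mitosis and -0.09 for replication members, against -0.0054 for all genes. S273A and untreated arrays were fully separated for 8 members (21.6%), against 23.0% of all genes. Of these, 7 were lower in S273A, against 13.9% of all genes, and Aurka was higher, against 9.11%.

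The lean in the mitosis genes was largest on 1 array. The median deviation of the 23 mitosis members from their own means was -0.13 on S273A replicate 1, and -0.03 on each of the other 2 S273A arrays. It ranged from 0.01 to 0.06 with rosiglitazone, from -0.01 to 0.01 with MRL24, and from -0.02 to 0.03 in untreated wild-type cells. S273A replicate 1 therefore lay lowest of the 12 arrays, with 3 of its 23 mitosis members above their own mean, while the other S273A arrays lay close to the lowest untreated array. The median log2 change of mitosis members was -0.04 without S273A replicate 1 and -0.03 without untreated replicate 1, against -0.07 with all arrays. For the 14 replication members the S273A arrays had medians of -0.06, 0.02 and -0.06, against 0.054, 0.083 and 0.032 on the untreated arrays. They were 0.01, -0.05 and -0.01 with MRL24, and 0.027, 0.075 and -0.0041 with rosiglitazone. All S273A arrays thus lay below the untreated ones, but so did all MRL24 arrays and rosiglitazone replicates 1 and 3.

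**Figure D2:**
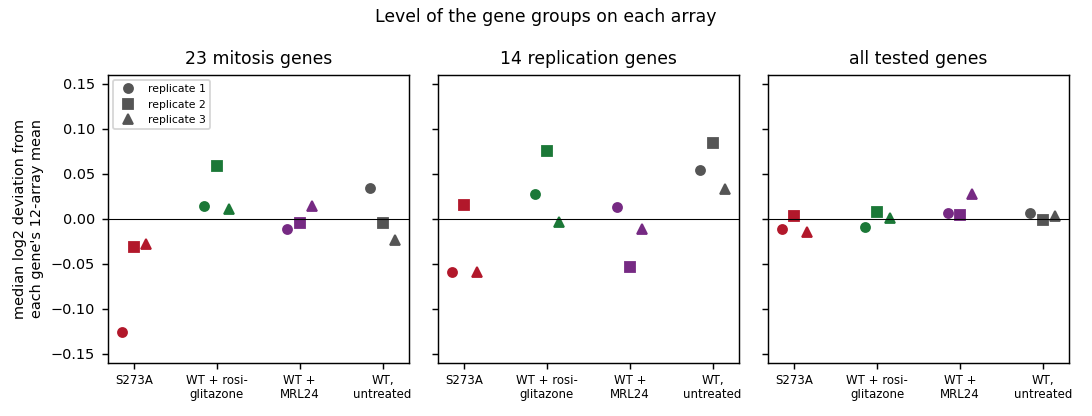
Median log2 deviation from each gene's mean over the 12 arrays, on every array, for the 23 tested mitosis members, the 14 tested replication members and all tested genes. S273A replicate 1 has the lowest mitosis median (-0.13), and the 3 untreated wild-type arrays have replication medians of 0.03 to 0.08.

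The second comparison set rosiglitazone against untreated wild-type cells. Rrm2 and Aurka rose and no member fell, which is 2 of 37 members (5.41%), against 8.52% of all genes called, 3.94% higher and 4.58% lower. The medians were 0.01 for mitosis and -0.04 for replication members, against -0.0027 for all genes. Groups did not overlap for 5 members (13.5%), against 26.2% of all genes. An unadjusted p under 0.05 was reached by 4 members, against 23.8% of all genes. Over all 37 members, those 2 rises included, 19 values lay below 0 and 18 above.

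The third comparison set MRL24 against untreated wild-type cells. Pola1 fell and no member rose, which is 1 of 37 members (2.7%), against 5.86% of all genes called, 2.47% lower and 3.39% higher. The medians were -0.02 for mitosis and -0.07 for replication members, against 0.01 for all genes. Groups did not overlap for 7 members (18.9%), against 29.7% of all genes. An unadjusted p under 0.05 was reached by 7 members, 4 of them of mitosis, against 25.2% of all genes. Over all 37 members, the Pola1 fall included, 24 lay below 0 (64.9%), against 47.4% of all tested genes. A lean below 0 was therefore not particular to S273A. All 3 comparisons named so far use the same 3 untreated arrays, so their differences are not independent of each other.

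The fourth comparison set rosiglitazone directly against MRL24, at the same dose and time. Rrm2 was higher with rosiglitazone and no other member was called, which is 1 of 37 members (2.7%), against 2.66% of all genes called, 1.5% higher and 1.16% lower. The medians were 0.02 for mitosis and 0.07 for replication members, against -0.02 for all genes. Groups did not overlap for 6 members (16.2%), against 26.0% of all genes. An unadjusted p under 0.05 was reached by 4 members, against 15.4% of all genes. Over all 37 members, the Rrm2 difference included, 24 lay above 0 and 13 below (35.1%), against 55.8% of all tested genes below 0. For the 36 members not called, the median half-width of the interval was the 0.18 given above, so the ligands were not shown to act alike on them.

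**Figure D3:**
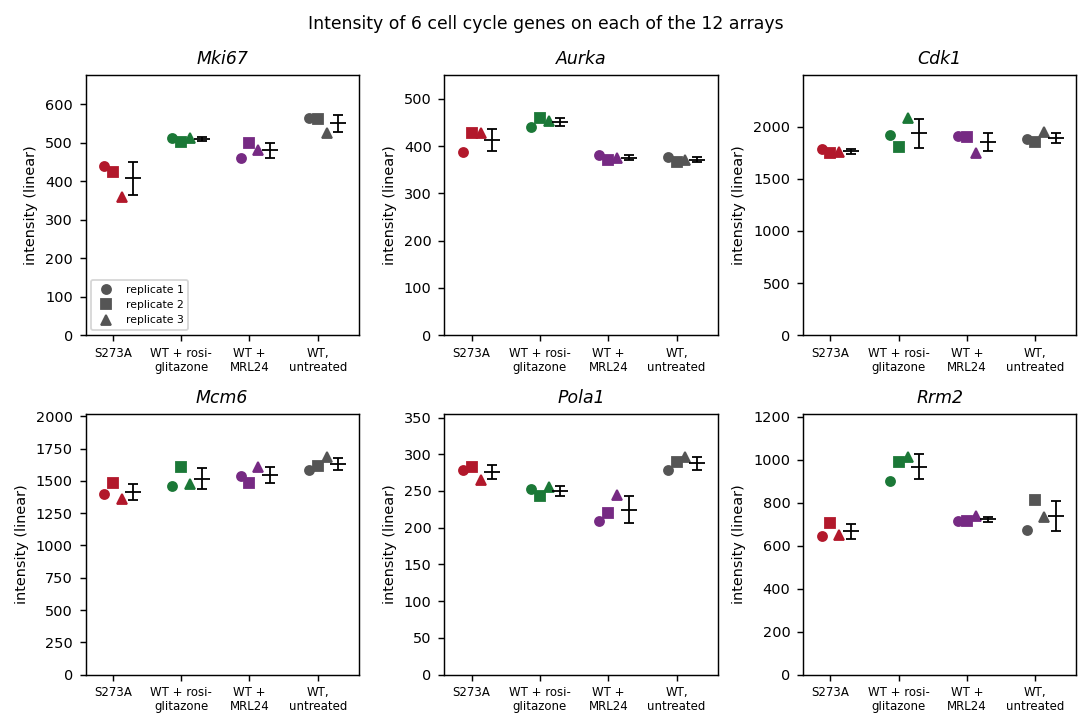
Intensity of Mki67, Aurka, Cdk1, Mcm6, Pola1 and Rrm2 on each of the 12 arrays, with the mean and SD of the 3 arrays of a group beside the points. Mki67 is lowest in S273A cells (359 to 439), Rrm2 is highest with rosiglitazone (901 to 1011), and the Cdk1 groups lie between 1744 and 2083.

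Among the mitosis members, Mki67 and Top2a are the classical marks of dividing cells. Mki67, the surfactant-like coat protein of mitotic chromosomes, read 439, 424 and 359 in S273A cells, 512, 503 and 512 with rosiglitazone, 459.8, 499.6 and 482 with MRL24, and 564, 561 and 525 in untreated wild-type cells. Every array of the other 3 groups lay below the lowest untreated array, and the S273A arrays lay lowest. The log2 change in S273A was -0.42 (SE 0.08, 95% interval -0.59 to -0.26, limma adjusted p = 0.00332), a fall of 1.34-fold. It was -0.41 without untreated replicate 2 (adjusted p = 0.0106). With the ligands the values were -0.11 (adjusted p = 0.441) for rosiglitazone and -0.19 (adjusted p = 0.151) for MRL24, and neither passed the test.

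Top2a, the topoisomerase that untangles sister chromatids, read 1607, 1715 and 1669.7 in S273A cells, 1771, 1661 and 1726 with rosiglitazone, 1741, 1754 and 1944 with MRL24, and 1754, 2004 and 1752 in untreated cells. The S273A arrays lay just below the untreated ones, and the ligand groups overlapped them. The log2 changes were -0.14 in S273A (SE 0.06, adjusted p = 0.208), -0.09 with rosiglitazone (adjusted p = 0.4) and -0.02 with MRL24 (adjusted p = 0.889), and none passed the test. A second Top2a probe set, near background, was not used.

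Cdk1, the kinase that drives entry into mitosis, read 1786, 1744 and 1759 in S273A cells, 1923, 1803 and 2083 with rosiglitazone, 1907, 1904 and 1749.7 with MRL24, and 1884, 1852 and 1945 in untreated cells. Its S273A arrays were below the untreated arrays by a small margin, at a log2 change of -0.10 (95% interval -0.22 to 0.02, adjusted p = 0.322). Its partner cyclins did not pass the test either. Ccnb2, cyclin B2, read 336, 422 and 359.8 in S273A cells, 376, 451 and 419.7 with rosiglitazone, 347, 328 and 363 with MRL24, and 385, 410.1 and 332 in untreated cells. Its rosiglitazone arrays all lay above its MRL24 arrays, at a log2 difference of 0.25 (SE 0.10, adjusted p = 0.241). Ccna2, cyclin A2, ranged from 1028 to 1327 over the 12 arrays, and its groups overlapped.

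The kinases of the spindle poles and of the midzone gave the second mitosis call. Aurka, the Aurora kinase of the spindle poles, read 387, 426 and 427 in S273A cells, 441, 459 and 453 with rosiglitazone, 381, 370.3 and 375 with MRL24, and 377, 366 and 370.2 in untreated wild-type cells. Its 3 rosiglitazone arrays lay above all other arrays, and the MRL24 arrays lay among or next to the untreated ones. The log2 change with rosiglitazone was 0.27 (SE 0.07, 95% interval 0.12 to 0.42, limma adjusted p = 0.0248). It was 0.26 without untreated replicate 2, where the call was lost (adjusted p = 0.062). The call was also lost without any 1 of the rosiglitazone arrays, with adjusted p of 0.0518, 0.0951 and 0.0708 without replicates 1, 2 and 3. Against MRL24 the difference was 0.26 (adjusted p = 0.0669), and S273A differed from untreated cells by 0.15 (adjusted p = 0.237).

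Tpx2, which activates Aurora A on the spindle, did not follow Aurka. It ranged from 718 to 882, and its log2 change with rosiglitazone was 0.01 (95% interval -0.12 to 0.14, adjusted p = 0.955). Aurkb, the Aurora kinase of the chromosomal passenger complex, read 419, 459 and 522 in S273A cells, 502, 526 and 494 with rosiglitazone, 495, 469 and 589 with MRL24, and 501, 471 and 407 in untreated cells. Its groups overlapped in every comparison with untreated cells.

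Birc5, or survivin, the passenger partner of Aurora B, read 592, 562 and 560.0 in S273A cells, 602, 609.5 and 636 with rosiglitazone, 620.0, 572 and 631 with MRL24, and 684, 726 and 598 in untreated cells. Its S273A arrays lay below the untreated ones, at -0.22 (SE 0.07, adjusted p = 0.0919), short of the test. Without untreated replicate 3 the value was -0.30 and passed it (adjusted p = 0.0228). Plk1, the Polo kinase that acts throughout mitosis, read 437, 458 and 532 in S273A cells, 563, 552 and 460.3 with rosiglitazone, 633, 616 and 566 with MRL24, and 515, 495 and 489 in untreated cells. The MRL24 arrays lay above all 9 other arrays. The log2 difference of MRL24 from untreated cells was 0.27 (SE 0.09, adjusted p = 0.0835), and that of rosiglitazone from MRL24 was -0.20 (adjusted p = 0.286).

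The genes of the spindle checkpoint and of the anaphase-promoting complex gave no call. Cdc20, the activator of that complex, read 3257, 3162 and 2921 in S273A cells, 2739, 3236 and 2834 with rosiglitazone, 2432, 2694 and 2785 with MRL24, and 2736, 3043 and 3188 in untreated cells. Its value for MRL24 was -0.18 (SE 0.07, adjusted p = 0.142), with groups that overlapped. Its other probe sets gave 0.32 and 0.14 in that comparison, so the probe sets disagree in sign and no direction is given. Ube2c, the ubiquitin carrier of the same complex, read 768, 840.2 and 839.9 in S273A cells, 788, 832 and 835 with rosiglitazone, 794, 706 and 767 with MRL24, and 856, 941 and 806 in untreated cells. The MRL24 arrays lay below the untreated ones, at -0.19 (SE 0.07, adjusted p = 0.104). The checkpoint kinases Bub1 and Bub1b ranged from 153 to 218 and from 237 to 346, and the checkpoint protein Mad2l1 from 551 to 673.

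The motor and midzone genes also gave no call. Kif11, the motor that pushes the spindle poles apart, read 168, 228 and 207 in S273A cells, 207, 240.4 and 183 with rosiglitazone, 256, 216 and 211 with MRL24, and 198, 209 and 225 in untreated cells. Kif20a, a motor needed for cytokinesis, read 256, 266 and 225 in S273A cells, 278, 285 and 264 with rosiglitazone, 289, 244 and 329 with MRL24, and 369, 269 and 227 in untreated cells. The spread within the untreated group, from 227 to 369, covered all S273A arrays but 1, and the log2 change was -0.18 (adjusted p = 0.528).

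Prc1, which bundles midzone microtubules, read 742, 869 and 827 in S273A cells, 937, 978 and 857 with rosiglitazone, 811, 848 and 1002 with MRL24, and 884, 848 and 775 in untreated cells. Racgap1, a regulator of the contractile ring, read 448, 526 and 561 in S273A cells, 491, 559 and 511 with rosiglitazone, 515, 512 and 558 with MRL24, and 485, 452 and 505 in untreated cells. Its MRL24 arrays lay above its untreated ones without passing the test (0.13, adjusted p = 0.35). Kif23, Kif2c, the centromere histone Cenpa and the spindle protein Nusap1 were among the 9 mitosis members whose changes lay between -0.16 and 0.11 in all 4 comparisons, with no adjusted p under 0.202.

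Among the replication members, Mcm6 gave the call in S273A. The 6 Mcm2 to Mcm7 proteins form the ring that unwinds DNA, and 5 of the 6 lay below 0 in S273A, of which Mcm6 was called. Mcm6 read 1396, 1487 and 1362 in S273A cells, 1461, 1611 and 1477 with rosiglitazone, 1538, 1485 and 1612 with MRL24, and 1588, 1619 and 1684 in untreated wild-type cells. The S273A arrays lay below the untreated ones, and the ligand arrays overlapped both. The log2 change in S273A was -0.20 (SE 0.06, 95% interval -0.32 to -0.08, limma adjusted p = 0.0401). A second, dimmer probe set of Mcm6 gave -0.27 (SE 0.09). The value was -0.21 without untreated replicate 2, where the call was lost (adjusted p = 0.0545). It was also lost without S273A replicate 1 or 3, untreated replicate 1 or 3, rosiglitazone replicate 3, or MRL24 replicate 1 or 2, and in 11 of 23 alternative settings in all, with adjusted p between 0.016 and 0.141 over all of them.

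No other ring member was called in any comparison. Mcm2 read 846, 870.1 and 893 in S273A cells, 893, 1016 and 827 with rosiglitazone, 797, 864 and 930.5 with MRL24, and 857, 805 and 944 in untreated cells. Mcm5 read 488, 456 and 554 in S273A cells, 569, 679 and 570.0 with rosiglitazone, 611, 524 and 558 with MRL24, and 568, 552 and 564 in untreated cells. Its change in S273A was -0.17 (adjusted p = 0.286), and S273A and untreated arrays overlapped. Its rosiglitazone arrays lay above its untreated arrays, by a narrow margin for 2 of them, at 0.10 (adjusted p = 0.531).

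Mcm4 read 529, 586 and 459 in S273A cells, 597, 556 and 563 with rosiglitazone, 605, 613 and 579 with MRL24, and 578, 612 and 575 in untreated cells. Mcm7 read 1624, 1802 and 1631 in S273A cells, 1561, 1682 and 1608 with rosiglitazone, 1662, 1681 and 1649 with MRL24, and 1835, 1863 and 1672 in untreated cells. Its value with rosiglitazone was -0.14 (SE 0.06, adjusted p = 0.138). Mcm3 ranged from 703 to 913. Cdc45, which joins the ring to form the active helicase, read 262, 274 and 242 in S273A cells, 308, 288 and 302 with rosiglitazone, 299, 301 and 316 with MRL24, and 281, 273.1 and 309 in untreated cells, and its groups overlapped in each of the 3 comparisons with untreated cells.

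The polymerase that starts each DNA strand is made of Pola1, its catalytic subunit, and Prim1, its primase, with their partners. Pola1 read 278, 283 and 265 in S273A cells, 252, 243 and 255 with rosiglitazone, 208, 220.1 and 244 with MRL24, and 278, 289.7 and 296 in untreated wild-type cells. Both ligand groups lay below the untreated arrays, and the ligand groups overlapped each other by 1 array. The log2 change with MRL24 was -0.34 (SE 0.09, 95% interval -0.53 to -0.15, limma adjusted p = 0.037). It was -0.34 without untreated replicate 2, where the call was lost (adjusted p = 0.108), and without untreated replicate 3 it was -0.32 (adjusted p = 0.0606). The call was also lost without any 1 of the MRL24 arrays, with adjusted p of 0.117, 0.116 and 0.0623 without replicates 1, 2 and 3. With rosiglitazone the value was -0.19 (adjusted p = 0.204), and the ligands differed by 0.15 (95% interval -0.04 to 0.34, adjusted p = 0.464).

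Prim1 read 846, 918 and 907 in S273A cells, 651, 842 and 806 with rosiglitazone, 769.9, 722 and 637 with MRL24, and 829.5, 881 and 873 in untreated cells. Its MRL24 arrays also lay below the untreated ones, at -0.28 (SE 0.09, adjusted p = 0.0742), short of the test. It passed without rosiglitazone replicate 1 (adjusted p = 0.0415), an array that enters this value only through the shared spread. It also passed with arrays set to the same median (-0.31, adjusted p = 0.047). Pcna, the sliding clamp of the replicating polymerases, read 2906, 3042 and 2765 in S273A cells, 2898, 2889 and 3059 with rosiglitazone, 2906, 2759 and 2972 with MRL24, and 3169.9, 2966 and 3003 in untreated cells. Its groups overlapped in every comparison, and its changes against untreated cells lay between -0.08 and -0.05.

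Ribonucleotide reductase makes the DNA building blocks, and its small subunit Rrm2 is the one that rises and falls with the cell cycle. Rrm2 read 644, 705 and 649 in S273A cells, 901, 988 and 1011 with rosiglitazone, 717, 715 and 737 with MRL24, and 672, 810.1 and 734 in untreated wild-type cells. The rosiglitazone arrays lay above all 9 other arrays. The log2 change was 0.38 against untreated cells (SE 0.07, 95% interval 0.23 to 0.54, limma adjusted p = 0.00355), a rise of 1.30-fold. Between the ligands it was 0.41 (SE 0.07, 95% interval 0.25 to 0.57, adjusted p = 0.00517), or 1.33-fold. Without untreated replicate 2 the change against untreated cells was 0.45 (adjusted p = 0.00103).

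The other probe sets of Rrm2 gave 0.56 (SE 0.10) and 0.32 (SE 0.08) against untreated cells and 0.31 (SE 0.10) and 0.28 (SE 0.08) between the ligands. The set used carries the mark that Affymetrix gives to probes shared with other transcripts, and the other 2 do not. All 3 lay higher with rosiglitazone in both comparisons. With MRL24 against untreated cells they gave -0.03, 0.25 and 0.05, and the set used did not pass the test (adjusted p = 0.863). The large subunit Rrm1 did not show a call. It read 905, 986 and 905 in S273A cells, 966, 1066 and 969 with rosiglitazone, 973, 906 and 975 with MRL24, and 871, 891 and 971 in untreated cells, a change of 0.13 with rosiglitazone (SE 0.07, adjusted p = 0.231).

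Ccne1, the E-type cyclin that opens the phase of DNA synthesis, read 171, 178 and 146 in S273A cells, 197, 233 and 183 with rosiglitazone, 209, 149 and 174 with MRL24, and 223, 214 and 222 in untreated cells. The S273A and MRL24 arrays all lay below the untreated ones, at -0.38 in S273A (SE 0.13, adjusted p = 0.0929) and -0.29 with MRL24 (adjusted p = 0.178). After Mki67 this was the lowest value of any member in S273A, but it did not pass the test. The second E-type cyclin, Ccne2, ranged from 288 to 346, and its change in S273A was -0.05 (adjusted p = 0.807).

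The 4 members below the filter were not tested. Over the 12 arrays the phosphatase Cdc25c ranged from 57.4 to 116, the kinetochore motor Cenpe from 57.1 to 94.0, the replication licensing factor Cdc6 from 56.9 to 92.0, and the thymidylate synthase Tyms from 87.8 to 136. Tyms read 111, 87.8 and 115 in S273A cells, 136, 121 and 133 with rosiglitazone, 91.5, 94.2 and 121 with MRL24, and 127, 108 and 91.9 in untreated cells. In the fit without the filter none of the 4 passed the test in any comparison, with adjusted p of at least 0.386.

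Markers of other cell types moved with the groups, and their part in these results was not tested. The summed intensity of 12 adipocyte markers was 14569 to 15138 in S273A cells and 13564 to 15100 in untreated cells. It was 31659 to 32144 with rosiglitazone and 20640 to 20814 with MRL24. The arrays with the highest Rrm2 were also those with the highest adipocyte sum. With MRL24, however, the sum also lay above that of untreated cells, while Rrm2 changed by -0.03 (limma adjusted p = 0.863). Fabp4 made up most of that sum in each group. All 8 tested adipocyte markers lay above 0 in S273A (median 0.14, 1 called higher), with rosiglitazone (median 0.30, 4 called higher) and with MRL24 (median 0.23, 3 called higher). The shares of all genes called higher were 2.31% in S273A, 3.94% with rosiglitazone and 3.39% with MRL24. Those of all genes below 0 were 51.6%, 50.8% and 47.4%, in the same order. Of 11 tested fibroblast markers, 7 fell in S273A, among them Pdgfra at -0.64 (adjusted p = 7.834e-06) and Postn at -0.69 (adjusted p = 0.000114), while 2 fell with rosiglitazone and 1 with MRL24. Of all genes, 5.48% were called lower in S273A, 4.58% with rosiglitazone and 2.47% with MRL24. The sum over 12 fibroblast markers was 124200 to 130917 in S273A cells, 130746 to 136851 with rosiglitazone, 137021 to 142362 with MRL24, and 128487 to 139599 in untreated cells. Of 5 tested macrophage markers, Cd68 was called and rose in S273A by 0.63 (adjusted p = 4.545e-05). With Cd68 included, 4 of the 5 lay above 0 in S273A (median 0.15) and 1 below. The tested ones included Csf1r, at a mean of 1758 over the 12 arrays. Among those below the filter, C1qc read 1.0 on all arrays and Lyz2 between 1.0 and 24.5. The macrophage sum of 13 genes was 4019 to 4239 in S273A cells, 3555 to 3885 with rosiglitazone, 3592 to 3696 with MRL24, and 3369 to 3810 in untreated cells.

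The rest of the pathway was read from 5 further lists. The lists of other mitosis and other replication genes, with 38 and 42 tested genes, had few calls. In S273A, Hmgb2, a chromatin protein of dividing cells, fell, and it was 1 of 38 (2.63%), against 5.48% of all genes called lower. It read 809, 955 and 765 in S273A cells, against 1142, 999 and 1039 in untreated cells (-0.33, SE 0.08, adjusted p = 0.0189), and its groups did not overlap. The call was lost without S273A replicate 1 (adjusted p = 0.0619), S273A replicate 3 (0.0948) or untreated replicate 1 (0.0721). It was also lost with the 6 arrays of the comparison alone (0.0875). Cdt1, which loads the Mcm ring onto DNA, rose, and it was 1 of 42 (2.38%), against 2.31% of all genes called higher. It read 2006, 2259 and 2238 in S273A cells, against 1938, 1909 and 1764 in untreated cells (0.21, SE 0.06, adjusted p = 0.0471). The Cdt1 call was lost in 16 of 23 alternatives, among them without untreated replicate 2 (adjusted p = 0.0513). With the mean of all probe sets the value was 0.14 (adjusted p = 0.612).

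With rosiglitazone, 1 of the 38 (2.63%) and 2 of the 42 (4.76%) fell, against 4.58% of all genes called lower, and none rose, against 3.94% called higher. Pttg1, or securin, which keeps sister chromatids from parting too early, read 1903, 1938 and 2076 with rosiglitazone, against 2194, 2713 and 2207 in untreated cells (-0.26, SE 0.07, adjusted p = 0.0284). Dut, which removes dUTP from the nucleotide pool, read 1283, 1227 and 1179 with rosiglitazone, against 1392, 1525 and 1428 in untreated cells (-0.23, SE 0.06, adjusted p = 0.022). Rfc1, of the clamp loader, read 316, 327 and 342 with rosiglitazone, against 395, 479 and 378 in untreated cells (-0.33, SE 0.10, adjusted p = 0.0499). The highest untreated array of each of the 3 was replicate 2, and without it all 3 calls were lost, at adjusted p of 0.072 for Pttg1, 0.0709 for Dut and 0.194 for Rfc1. With the mean of all probe sets the value was -0.0042 for Rfc1 (adjusted p = 0.98) and -0.086 for Pttg1 (adjusted p = 0.7). The Rfc1 call was lost in 17 of 22 alternatives. That of Dut was also lost without rosiglitazone replicate 2 (adjusted p = 0.0746) or 3 (0.0891), and that of Pttg1 without replicate 1 (0.101) or 2 (0.103). With MRL24 neither list had a call, at 5 of 38 and 8 of 42 with an unadjusted p under 0.05, against 25.2% of all genes. Between the ligands Cks2, a small partner of Cdk1, read 3888, 4147 and 4251 with rosiglitazone, against 3622, 3287 and 3328 with MRL24 (0.26, SE 0.06, adjusted p = 0.0309).

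The list of CDK inhibitors and p53 targets had the most calls of the 5, with 4 of 18 (22.2%) in each comparison with untreated cells. Of all genes, the shares given above were 7.78% in S273A, 8.52% with rosiglitazone and 5.86% with MRL24. Between the ligands it was 2 of 18 (11.1%), against 2.66%. The lists were chosen with earlier results of these data known, and the 3 comparisons share the untreated arrays. These shares are therefore no test of the list. Its members moved in both directions, and the median was 0.02 in S273A, -0.0019 with rosiglitazone and 0.03 with MRL24. In S273A the p53-responsive Ccng1 and the stress genes Gadd45a and Gadd45b rose, and the growth arrest gene Gas1 fell. Ccng1 read 3830.0, 4127 and 3452 in S273A cells, 3514, 3619 and 3273 with rosiglitazone, 3745, 3659 and 3807 with MRL24, and 2798, 2307 and 2856 in untreated cells. All 9 of these arrays lay above the untreated ones, with changes of 0.52 in S273A (adjusted p = 0.000566), 0.39 with rosiglitazone (adjusted p = 0.004) and 0.50 with MRL24 (adjusted p = 0.0043). Its lowest untreated array was replicate 2, without which the changes were 0.42 in S273A, 0.29 with rosiglitazone and 0.40 with MRL24 and were still called. The 2 other probe sets of Ccng1 gave smaller rises, of 0.08 to 0.37.

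Gas1, which holds fibroblasts in growth arrest, read 1679.9, 1660.4 and 1564 in S273A cells, 1783, 1756 and 1892 with rosiglitazone, 2003, 1884 and 1837 with MRL24, and 2331, 2313 and 2310.0 in untreated cells. It fell in all 3 groups, by 0.50 in S273A (adjusted p = 1.95e-05), by 0.35 with rosiglitazone (adjusted p = 0.000352) and by 0.28 with MRL24 (adjusted p = 0.00935) on the log2 scale. Its dimmer probe sets gave -0.32 and -0.01 in S273A and -0.05 and -0.01 with MRL24, so the size depends on the probe set. The MRL24 call was lost with the mean of all probe sets (-0.11, adjusted p = 0.17) and without MRL24 replicate 3 (adjusted p = 0.0531). Gadd45a read 3118, 2980.3 and 2897 in S273A cells, 2214, 1955 and 2125 with rosiglitazone, 2529, 2483 and 2253 with MRL24, and 2474, 2444 and 2305 in untreated cells. It rose in S273A (0.31, adjusted p = 0.00332) and fell with rosiglitazone (-0.20, adjusted p = 0.0471). The rosiglitazone call was lost in 10 of 23 alternatives, at adjusted p of up to 0.207, among them without untreated replicate 2 (adjusted p = 0.0996). Gadd45b read 4169.5, 4146 and 3734 in S273A cells, against 3103, 3399 and 3227 in untreated cells (0.31, SE 0.05, adjusted p = 0.00183).

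Btg1 and Btg2 restrain cell division. Btg1 read 17420.0, 17176 and 16769 with rosiglitazone, 17434, 17593 and 17884 with MRL24, and 15872, 15417 and 15115 in untreated cells. It rose with both ligands, by 0.15 with rosiglitazone (adjusted p = 0.00464) and 0.19 with MRL24 (adjusted p = 0.0043), and both calls were lost after quantile normalization. Btg2 read 1386, 1353 and 1488 with rosiglitazone, 1162, 1042 and 1028 with MRL24, and 1335, 1516 and 1299.9 in untreated cells. It fell with MRL24 (-0.355, SE 0.07, adjusted p = 0.0147, and 0.0529 without untreated replicate 2) and was higher with rosiglitazone than with MRL24 (0.38, SE 0.07, adjusted p = 0.00849). Its second probe set gave 0.07 for MRL24 against untreated cells and 0.19 between the ligands, so the first of these disagrees in sign. Both Btg2 calls were lost without MRL24 replicate 2 or 3, and the one between the ligands also without rosiglitazone replicate 3, at adjusted p of 0.0572 to 0.0702. Mdm2, the p53 ubiquitin ligase, read 4734, 4486 and 4649 with rosiglitazone, against 5038, 5449 and 5447 with MRL24 (-0.20, SE 0.05, adjusted p = 0.0309).

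The G1 list, of 10 genes that act before DNA synthesis, had no call in S273A, where 1 of 10 had an unadjusted p under 0.05 (21.5% of all genes), and 1 call in each other comparison. Of all genes, 7.78% were called in S273A, 8.52% with rosiglitazone, 5.86% with MRL24 and 2.66% between the ligands. Ccnd1, the D-type cyclin that links growth signals to the cycle, read 3145, 3269 and 3007 in S273A cells, 2793, 2636 and 2828 with rosiglitazone, 3072, 2876 and 3002 with MRL24, and 3466, 3987 and 3247 in untreated cells. It fell with rosiglitazone (-0.37, SE 0.06, adjusted p = 0.00183) and with MRL24 (-0.25, adjusted p = 0.0338). Without untreated replicate 2, its highest array, the values were -0.28 with rosiglitazone (adjusted p = 0.002835) and -0.17 with MRL24 (adjusted p = 0.11), so the MRL24 call was lost, as it was without any 1 of the MRL24 arrays (adjusted p of 0.0655, 0.127 and 0.0972 without replicates 1, 2 and 3). All 3 probe sets lay lower with each ligand. The ligands themselves differed by -0.12 (95% interval -0.25 to 0.02, adjusted p = 0.411). Ccnd2, another D-type cyclin, read 8677, 9336 and 9027 with rosiglitazone, against 7929.5, 7861 and 8094 with MRL24 (0.18, SE 0.04, adjusted p = 0.0208).

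Of 15 tested E2F, pocket protein and DREAM genes, 1 fell in each comparison with untreated cells (6.67%) and none rose. This was near the share of all genes called, 7.78% in S273A, 8.52% with rosiglitazone and 5.86% with MRL24. E2f8, an E2F repressor that is itself periodic, read 381, 349 and 381 in S273A cells, against 491, 435 and 532 in untreated cells (-0.38, SE 0.09, adjusted p = 0.0131, and 0.00497 without untreated replicate 2). That call was lost without S273A replicate 2 (adjusted p = 0.0633) or untreated replicate 3 (0.0539), and with the 6 arrays of the comparison alone (0.0637). Rbbp4, a histone-binding DREAM subunit, read 3502, 3541 and 3529 with rosiglitazone, against 4033, 4195 and 3871 in untreated cells (-0.19, SE 0.04, adjusted p = 0.0107, and 0.0284 without replicate 2), although the mean of its probe sets gave -0.03 (adjusted p = 0.786). Lin37, another DREAM subunit, read 345, 376 and 389 with MRL24, against 435, 472 and 462 in untreated cells (-0.29, SE 0.08, adjusted p = 0.0452, and 0.147 without replicate 2). The Lin37 call was lost in 13 of 23 alternatives, among them no filter, array weights and leaving out any 1 MRL24 array. The 3 calls of this list were on 3 different genes.

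**Figure D4:**
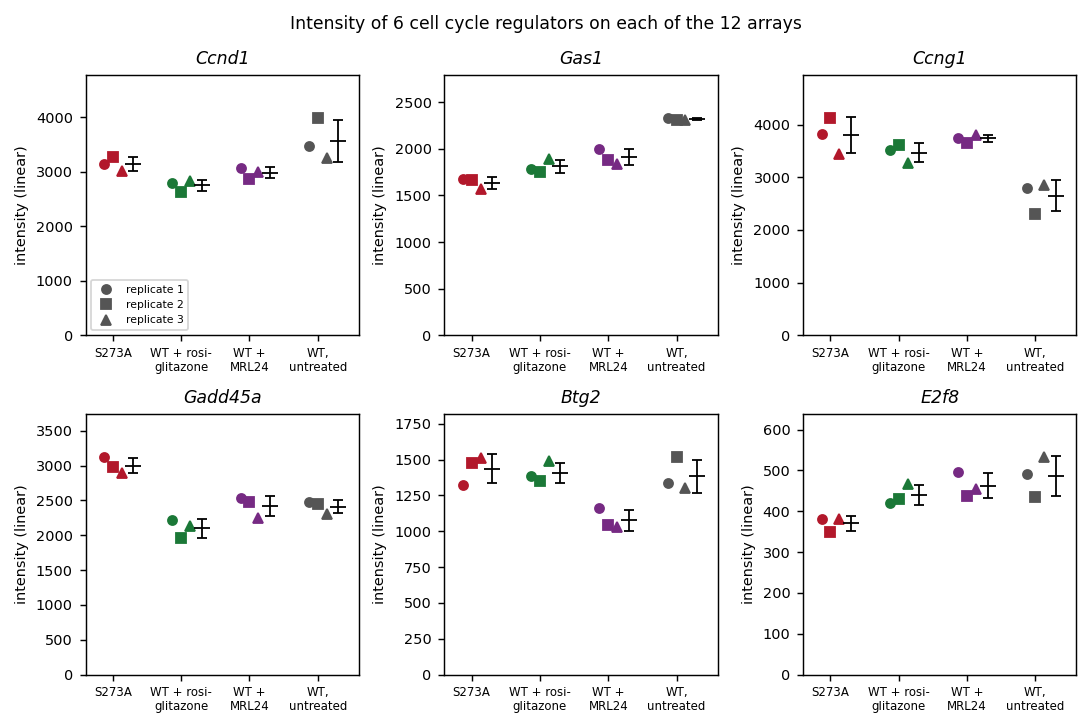
Intensity of the cell cycle regulators Ccnd1, Gas1, Ccng1, Gadd45a, Btg2 and E2f8 on each of the 12 arrays, with the mean and SD of the 3 arrays of a group beside the points. Gas1 lies lower and Ccng1 higher than in untreated wild-type cells on all 9 arrays of the other groups, and E2f8 is lowest in S273A cells (349 to 381).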

How the data were processed

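Total RNA was labelled with biotin and hybridised to Affymetrix arrays, per the labels' protocols. The authors deposited 1 table of linear intensity values for 22690 probe sets on 12 arrays. Their normalization is not stated in the labels used here. Of the probe sets, 64 were controls, 20380 had 1 gene symbol, 691 several and 1555 none in the annotation used. Entrez IDs matched 20351 of them, and 0 symbols changed. Each gene was read from its brightest probe set, and genes with a mean intensity under the 30th percentile over genes (132) were left out. Values were used as log2(intensity + 16).

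All 12 arrays entered 1 fit with a mean per group, in limma 3.58.1 and R 4.3.3 (lmFit, eBayes with a trend), with 8 residual and 7.56 prior degrees of freedom and Benjamini-Hochberg adjustment over 8675 genes. The number of arrays limits the precision. Tables used python 3.11.15, pandas 2.3.3, numpy 2.4.6 and matplotlib 3.10.9. On data simulated for S273A against wild-type cells, with 8675 genes and 50 changed per size, the fit recovered 16 at a log2 fall of 0.25, 41 at 0.5, 47 at 0.75 and 49 at 1, with 10 false calls.

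The members and lists were chosen with earlier results of these data known. Every array's value is given for called members, for the 3 largest rises and falls per subgroup and comparison, and for Mki67, Cdk1, Top2a, Mcm2 and Pcna; called genes of the other lists are named. The other lists held 50 mitosis, 50 replication, 10 G1, 20 E2F and DREAM and 22 CDK inhibitor and p53 genes, with 14 adipocyte, 12 fibroblast and 14 macrophage markers. Alternatives were pseudocounts of 1 and 64, filters at the 50th percentile or none, the mean of all probe sets, other scalings, array weights, a replicate block, the 6 arrays of a comparison and leaving out each array. A filter at the 30th percentile of all probe sets (110, 8990 genes) was chosen after seeing the data.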

Additional observations from a re-analysis of the deposited data

Results flagged for a closer look

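A direct test of rosiglitazone against MRL24 in limma called 5 of the genes described above. They were 1 of 37 members (2.7%), 1 of 38 other mitosis genes (2.63%), 1 of 10 G1 genes and 2 of 18 CDK inhibitor and p53 genes. None of 42 other replication genes and 15 E2F and DREAM genes was called. Of all tested genes 2.66% were called, so the share of members was near the background. Rrm2 was higher with rosiglitazone by 0.41 on the log2 scale (adjusted p = 0.00517), on 3 of 3 arrays. Btg2 was higher by 0.38 (adjusted p = 0.00849), Cks2 by 0.26 (adjusted p = 0.0309) and Ccnd2 by 0.18 (adjusted p = 0.0208). Mdm2 was lower with rosiglitazone, at -0.20 (adjusted p = 0.0309). In each of the 5 the arrays of the ligands did not overlap, but the genes were picked by a call on the same arrays. The share of all tested genes without overlap, 26.0%, is therefore not a like comparison. The Rrm2 call was kept in all 23 alternatives, and that of Btg2 in 20, Ccnd2 in 18, Cks2 in 17 and Mdm2 in 15. Without 1 rosiglitazone or MRL24 array at a time, the adjusted p of Mdm2 reached 0.153, that of Cks2 0.151 and that of Ccnd2 0.118, so these calls were lost in part of those settings.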

How the results depend on the processing

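The calls on Mki67 in S273A and on Rrm2 in both comparisons were kept in all 23 alternatives. The log2 changes were -0.48 to -0.34 for Mki67, 0.32 to 0.45 for Rrm2 against untreated cells and 0.33 to 0.46 between the ligands. Mki67 has 1 probe set, so the mean of all probe sets left its change as it was and was no check of it. Of 32 calls on single genes, members and other lists together, 11 were kept in all alternatives, 21 were lost in at least 1 and 0 reversed. Leaving out 1 array at a time, the members called ranged from 1 to 2 in S273A, 1 to 2 with rosiglitazone, 0 to 2 with MRL24 and 1 to 2 between the ligands, and all genes called from 396 to 649 in S273A, 392 to 787 with rosiglitazone, 70 to 838 with MRL24 and 99 to 494 between the ligands. The mitosis medians then ranged from -0.094 to -0.033 in S273A, -0.0054 to 0.026 with rosiglitazone, -0.068 to 0.015 with MRL24 and 0.0034 to 0.068 between the ligands, and the replication medians from -0.105 to -0.070 in S273A, -0.056 to -0.026 with rosiglitazone, -0.079 to -0.050 with MRL24 and 0.020 to 0.091 between the ligands. With the 6 arrays of a comparison alone, 243 genes were called in S273A with 1 member and 372 with rosiglitazone with 1 member. MRL24 then had 50 genes with 0 members, and 557 were called between the ligands. That setting lost the calls on E2f8, Hmgb2, Cdt1 and Mcm6 in S273A. It also lost those on Btg1, Gadd45a, Rbbp4, Aurka, Pttg1, Dut and Rfc1 with rosiglitazone, and on Btg2, Lin37, Ccnd1 and Pola1 with MRL24. MRL24 also had 0 members called without a filter (226 genes) and under the 50th percentile filter, which drops Pola1, and 2 with arrays set to the same median, where its medians were -0.056 for mitosis and -0.107 for replication. Array weights left 1 member called in S273A and gave 673 genes and 2 members between the ligands, where the same median, the mean of all probe sets and quantile normalization also gave 2, Aurka joining Rrm2. The mean of all probe sets moved the rosiglitazone mitosis median to 0.044, and the 50th percentile filter moved its replication median to 0.0014. The same median lowered the share of MRL24 calls that were higher to 33.9%, and quantile normalization to 43.3%, against 57.9% as deposited, and raised that between the ligands to 67.7% against 56.3%. Some settings use fewer arrays or genes, and the causes of these differences were not tested. Deviations of arrays with the same replicate number correlated at -0.12 to 0.15 over 18 pairs, against -0.16 to 0.18 over 36 pairs with different numbers, so the numbers were not taken as pairs. The replicate block gave 1 member called in S273A (Mcm6 at adjusted p = 0.0606) and 0 with MRL24 (Pola1 at 0.0555).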
